A study of Mus musculus with 12 samples.

Results

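The genes described here are the nuclear-encoded subunits and assembly factors of respiratory complex I. They were chosen by name alone, as the protein-coding genes whose deposited description begins with NADH:ubiquinone oxidoreductase and that do not lie on the mitochondrial chromosome. This gave 45 of the 58735 genes listed, and all 45 were among the 17538 genes tested, which had a mean FPKM (reads scaled to gene length and library size) of at least 0.5 over the 12 libraries. RNA was sequenced from U2OS, a human osteosarcoma cell line, to compare cells with and without reduced SRSF1, a splicing factor. The 4 groups held 3 libraries each. They were blank U2OS cells with no siRNA named, cells given siSRSF1-2, cells given siSRSF1-3, and OE-LINC01134 cells. The siRNAs have different target sites in SRSF1, and OE-LINC01134 cells overexpress the long non-coding RNA LINC01134. The labels do not say that replicates came from separate cultures. The study speaks of biological replicates and experimental repeats without saying how the cultures were separated. Its supplementary methods give fewer biological replicates per condition than the 3 libraries per group here. The p-values therefore measure the spread between these libraries, part of which may be technical. No control siRNA is named for the blank cells. What transfection does and what loss of SRSF1 does therefore cannot be told apart in the siRNA comparisons. The study's methods place transient transfection in HOS, another osteosarcoma line. How LINC01134 was raised is not given in the labels. The labels give the organism as mouse, whereas the gene identifiers are human.

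Complex I is the entry point of electrons from NADH into the respiratory chain of the inner mitochondrial membrane. Its matrix arm takes electrons from NADH over a flavin and a chain of iron-sulfur clusters to ubiquinone, and its membrane arm pumps protons. The core of the membrane arm is encoded by mitochondrial DNA, while the core of the matrix arm, the accessory subunits that surround both arms and the factors that build the complex are encoded in the nucleus. By role, the 45 genes comprised 7 core subunits of the matrix arm, 9 accessory subunits of the matrix arm, 9 of the proximal (ubiquinone-side) membrane arm, 11 of the distal membrane arm, the acyl carrier NDUFAB1 and 8 assembly factors. They lay on 22 chromosomes. Their gene lengths as deposited, which are not the genomic spans, ran from 531 to 12268 bases. The median was 2434, against 3701 for all genes tested.

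The libraries held 26237763 to 32954539 reads on genes, and a complex I gene held between 11 and 22061 reads in a library. LINC01134 stood at 891, 1279 and 878 FPKM in the OE-LINC01134 libraries and between 0.497 and 0.791 in the blank ones. SRSF1 stood at 35.9, 19.8 and 20.5 FPKM in the blank cells, 7.09, 7.46 and 7.41 with siSRSF1-2 and 3.33, 6.81 and 7.90 with siSRSF1-3, with an exact two-sided permutation p of 0.1 for each siRNA, the smallest that 3 against 3 libraries allow. The siSRSF1-3 libraries differed among themselves more than those of any other group: counts of replicates 1 and 3 differed by a chi-square of 316 per gene, against 2.60 to 3.20 among the siSRSF1-2 libraries. Blank replicate 1 and OE-LINC01134 replicate 2 also stood apart from their groups, by 63.2 to 68.6 per gene. Over all genes tested, siSRSF1-3 replicate 3 correlated (Pearson, log2 values) at 0.958 to 0.960 with the siSRSF1-2 libraries. With siSRSF1-3 replicates 1 and 2 it correlated at 0.861 and 0.922. Blank replicate 1 correlated at 0.952 with OE-LINC01134 replicate 2, against 0.935 and 0.937 with the other blank libraries. The deposited FPKM summed to 611084 and 410612 in siSRSF1-3 replicates 1 and 2, against 281051 to 324607 in the other libraries. Of the osteoblast and mesenchymal markers, VIM was abundant, COL1A2 was near 0, and the 6 markers summed to 404, 267 and 283 FPKM in blank cells, 138 to 142 with siSRSF1-2, 259, 252 and 148 with siSRSF1-3, and 135, 348 and 135 in OE-LINC01134. The 5 markers of epithelial, blood, endothelial, T and liver cells summed to 1.32, 1.99 and 1.60 FPKM in blank cells, 1.13 to 1.37 with siSRSF1-2 and 1.77 to 1.96 in OE-LINC01134. With siSRSF1-3 they summed to 2.66, 2.39 and 2.23, above every blank library. Most of this was the epithelial marker EPCAM, at 2.43, 2.15 and 2.06 FPKM against 0.918, 1.63 and 1.29 (log2 fold change 0.78, SE 0.261, limma, adjusted p = 0.123), while CD3E was at 0 and PTPRC and ALB were at most 0.0559. The part of these library differences and markers in the results below was not tested.

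Together the 45 genes took 0.264% to 0.273% of the reads on genes in blank cells and 0.255% to 0.265% in OE-LINC01134 cells. The share was 0.230% to 0.235% with siSRSF1-2, below every blank library. With siSRSF1-3 the 3 libraries gave 0.587%, 0.456% and 0.283%, all above the blank libraries but unequal among themselves. In such bulk samples, fewer cells of a type and less RNA per cell cannot be told apart. The level varied widely from gene to gene. NDUFS5, an accessory subunit on the intermembrane side, had the highest mean at 276 FPKM over the 12 libraries, and NDUFA7, an accessory subunit of the matrix arm, the lowest at 0.518. NDUFA7 held 11 to 27 reads in a library and overlaps a protein-coding entry on the same strand. The part of that overlap in its low level was not tested. Among the core subunits named here, mean levels followed in the order NDUFV1, NDUFS8, NDUFS3, NDUFS1, NDUFS7 and NDUFV2.

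**Figure D1:**
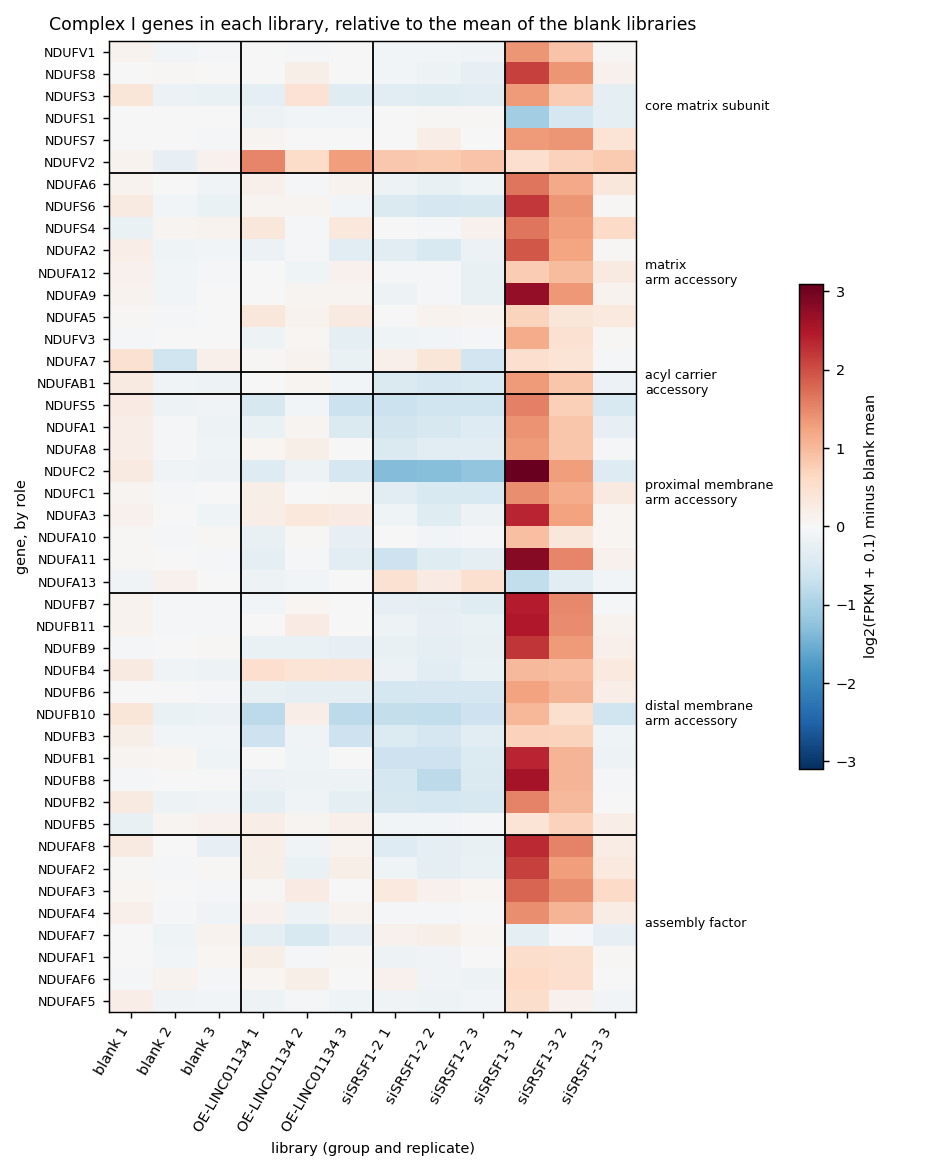
Each row is a complex I gene, grouped by role, and each column a library. Colour gives log2(FPKM + 0.1) minus the mean of the 3 blank libraries. The highest values are in siSRSF1-3 replicate 1, up to 3.07 for NDUFC2, while replicate 3 stays between -0.61 and 0.81.

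With siSRSF1-3, most complex I genes stood above their blank level in replicates 1 and 2 and near it in replicate 3. In replicate 1, 31 of the 45 exceeded the blank mean by more than 1 on the log2(FPKM + 0.1) scale, which 19.8% of all genes did. In replicate 2 there were 22, against 12.2% of all genes, and in replicate 3 there were 0, against 4.86%. Over the 3 libraries the fitted log2 fold change was positive for 42 genes and negative for NDUFS1, NDUFA13 and NDUFAF7, with a median of 0.76, against -0.01 for all genes tested. None passed the threshold (limma, adjusted p under 0.05 and log2 fold change over 1 in size), which 1.26% of all genes did. At an unadjusted p under 0.05, 17 were higher, against 15.2% of all genes, and 1 was lower, against 13.6%. Of the 17, 10 also had a log2 fold change over 1, against 7.57% of all genes. A second method, voom on the recovered reads, also called 0. The libraries did not overlap for 19 higher genes, against 19.2% of all genes, and for 1 lower gene, against 18%.

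The count rested on replicate 3. Without it, 28 complex I genes passed the threshold as higher, against 12.5% of all genes. Without replicate 1, replicate 2 or any one blank library the count was 0. With the spread pooled over all 4 groups in one fit, 13 passed, against 7.1% of all genes. Among the 28 were NDUFC2, NDUFA11, NDUFB8, NDUFB7, NDUFS8 and NDUFAF3. The median over the 45 genes was 1.14 without replicate 3, 0.50 without replicate 1 and 0.70 without replicate 2.

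Among the core subunits, NDUFS8, which holds iron-sulfur clusters close to the ubiquinone site, stood at 19.9, 20.3 and 19.7 FPKM in blank cells and at 87.6, 51.6 and 21.9 with siSRSF1-3. The groups did not overlap, but replicate 3 lay just above the blank range, and the log2 fold change was 1.21 with an SE of 0.468 (limma, adjusted p = 0.151). NDUFS7, another iron-sulfur subunit at the ubiquinone site, stood at 2.56, 2.54 and 2.46 in blank cells and at 6.43, 6.64 and 3.40. Its difference of 1.03 (SE 0.282) did not pass the test (limma, adjusted p = 0.0934). NDUFV1, which binds the flavin, stood at 88.1 and 63.7 in replicates 1 and 2 and at 35.2 in replicate 3, inside the blank range of 32.4 to 37.2 (difference 0.76, SE 0.338). NDUFS3 (0.61, SE 0.412), of the ubiquinone-side module, overlapped the blank libraries.

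NDUFS1 went the other way. This large subunit carries several of the iron-sulfur clusters, and its gene had the longest deposited length of the 45. It stood at 8.65, 8.38 and 8.50 FPKM in blank cells and at 3.97, 5.90 and 7.05 with siSRSF1-3, with every siSRSF1-3 library below every blank one and replicate 3 the closest. The log2 fold change was -0.62 with an SE of 0.235 (limma, adjusted p = 0.146). NDUFA13 (also called GRIM-19), an accessory subunit of the proximal membrane arm, stood at 0.735, 1.02 and 1.23 against 1.20, 1.46 and 1.30, a difference of -0.40 (SE 0.276). It overlaps the gene YJEFN3 on the same strand, which stood at 17.1, 9.89 and 6.91 against 4.61, 6.09 and 5.51. An annotated readthrough between NDUFA13 and YJEFN3 stood at 1.16, 1.56 and 0.973 against 1.135, 1.12 and 0.911. How reads shared by these entries were assigned was not tested. NDUFAF7, a methyltransferase that acts during assembly, differed by -0.20 (SE 0.166).

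The 9 accessory subunits of the matrix arm had a median log2 fold change of 1.07, all 9 positive. NDUFS4, a matrix-arm subunit whose loss causes Leigh syndrome, stood at 39.2, 47.7 and 49.0 in blank cells and at 143, 111 and 67.7 with siSRSF1-3, without overlap (1.18, SE 0.305, limma, adjusted p = 0.0856). The 8 assembly factors had a median of 0.65. NDUFAF3, which works on the ubiquinone-side module, had the smallest adjusted p of the 45. It stood at 14.1, 13.5 and 13.0 in blank cells and at 47.5, 37.2 and 20.6 with siSRSF1-3, all above the blank libraries (1.28, SE 0.311, limma, adjusted p = 0.0777). NDUFAF8, a small factor that stabilises the enzyme NDUFAF5, differed by 1.36 (SE 0.509).

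In the membrane arm the medians were 0.71 for the 9 proximal and 0.85 for the 11 distal accessory subunits. NDUFC1, a small membrane-spanning subunit, stood at 20.4, 18.4 and 19.1 in blank cells and at 52.3, 43.1 and 23.3, without overlap (0.96, SE 0.309, limma, adjusted p = 0.117). Its neighbour in the complex, NDUFC2, spread most: 130 in replicate 1, 37.9 in replicate 2 and 11.6 in replicate 3, with the last below the blank values of 18.8, 14.3 and 13.8 (1.32, SE 0.783). NDUFB3, a distal subunit, differed by 0.43 (SE 0.272) and turned to -0.02 after a rescaling that gave all libraries one FPKM total. NDUFS5, the most abundant, stood at 782 and 439 in replicates 1 and 2 but at 189 in replicate 3, below the blank values of 312, 237 and 245 (0.61, SE 0.518). The acyl carrier NDUFAB1, which also serves mitochondrial fatty acid synthesis, differed by 0.67 (SE 0.389).

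**Figure D2:**
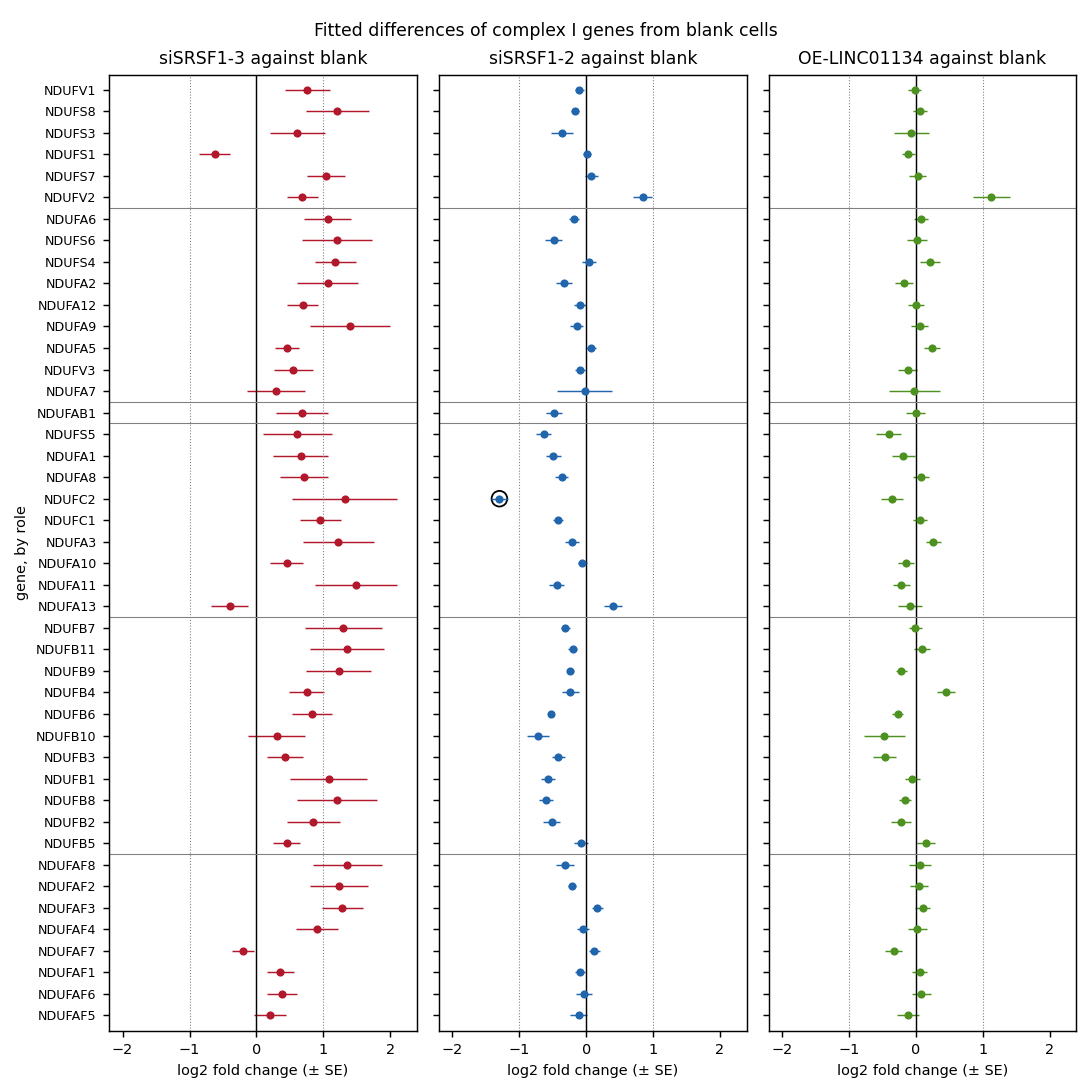
Points give the fitted log2 fold change of each complex I gene against blank cells, bars its SE, and dotted lines a change of 1 in either direction. The only circled point, past the threshold, is NDUFC2 at -1.30 with siSRSF1-2, and the bars are widest with siSRSF1-3.

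With siSRSF1-2, the complex I genes were mostly somewhat below the blank level, and the 3 libraries were close to each other. Of the 45 genes, 37 had a negative and 8 a positive log2 fold change, with a median of -0.20, against 0.02 for all genes. Only NDUFC2 passed the threshold, as lower, while 4.95% of all genes passed it in either direction and 2.73% as lower. By the adjusted p without a minimum fold change, 16 were lower, against 12.8% of all genes, and 1 (NDUFV2) was higher, against 14%. At an unadjusted p under 0.05, 20 were lower, against 19.7% of all genes, and 2 higher, against 20.6%. Libraries did not overlap for 25 lower genes, against 24.2% of all genes, and for 3 higher ones, against 25.3%. The per-library medians were -0.15, -0.26 and -0.21. Without blank replicate 1, the median was -0.15.

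The lower genes lay mostly in the membrane arm. By adjusted p alone they were 8 of the 11 distal accessory subunits (median -0.42, 0 of 11 positive), 6 of the 9 proximal ones (median -0.42), NDUFAB1, 1 of the 9 matrix-arm accessory subunits (NDUFS6) and 0 of the 7 core subunits and 8 assembly factors, whose medians were -0.10 and -0.07 and turned to 0.03 and 0.06 once all libraries had one FPKM total. At an unadjusted p under 0.05, NDUFS8 of the core (-0.17, SE 0.0643) and the assembly factor NDUFAF2 (-0.21, SE 0.0632) were also lower. Of all genes, 12.8% were lower by adjusted p alone and 19.7% at an unadjusted p under 0.05. The difference between roles was not tested. Nor was the part of gene length in it, with which the siSRSF1-2 values correlated (Spearman's rho 0.462 over the 45 genes).

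NDUFC2 lies on the minus strand of chromosome 11 at 78068304 to 78080219 (coordinates as deposited, with the build not given in the sources used here). It stood at 18.8, 14.3 and 13.8 FPKM in blank cells. With siSRSF1-2 it stood at 5.99, 6.18 and 6.55, and the highest of these was below the lowest blank library. It fell by 1.30 on the log2 scale with an SE of 0.130 (limma, adjusted p = 0.00242). The call was lost when all 4 groups shared one spread, where 1.03% of all genes were called lower, and the adjusted p ran from 7.3e-05 to 0.247 over the 17 fits with a test, the reported one included. An annotated readthrough of NDUFC2 into KCTD14 on the same strand was listed at 0 in 11 libraries and at 0.0410 FPKM in siSRSF1-2 replicate 2.

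NDUFB6, a distal membrane-arm subunit, stood at 56.6, 56.9 and 55.2 in blank cells and at 38.7, 39.1 and 39.4 with siSRSF1-2. Both groups were tight and did not overlap, with a log2 fold change of -0.52 and an SE of 0.0485 (limma, adjusted p = 0.00207). NDUFS5 stood at 165, 170 and 172, below all blank libraries (-0.64, SE 0.111, limma, adjusted p = 0.0108). NDUFB8, another distal subunit, stood at 7.68, 6.39 and 8.18 against 11.1, 11.4 and 11.4 (-0.60, SE 0.103, limma, adjusted p = 0.0099). It has 2 annotated pseudogenes, and reads shared with such copies cannot be told apart in these values. One of them, subunit B8 pseudogene 2, was itself higher with siSRSF1-2, by 1.18 (SE 0.252, limma, adjusted p = 0.0197). NDUFC1 stood at 15.4, 13.7 and 13.9, also below the blank libraries (-0.42, SE 0.0752, limma, adjusted p = 0.0114).

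NDUFV2, a core subunit of the NADH-binding module with an iron-sulfur cluster, was the one gene of the 45 that was higher by adjusted p. It lies on the plus strand of chromosome 18 at 9102630 to 9134345. It stood at 1.24, 0.947 and 1.26 FPKM in blank cells and at 2.12, 2.09 and 2.17 with siSRSF1-2, without overlap (0.84, SE 0.139, limma, adjusted p = 0.00908). It has 1 annotated pseudogene, which differed by -0.26 (SE 0.257). An annotated processed transcript on the same strand and genes on the opposite strand overlap NDUFV2, and how shared reads were assigned is not known. Whether the counting used strand is not given in the sources used here. The core subunits NDUFS1 (0.02, SE 0.0586), NDUFS7 (0.08, SE 0.096), NDUFV1 (-0.10, SE 0.0688) and NDUFS3 (-0.36, SE 0.165) did not pass by adjusted p, and NDUFV1 turned to 0.03 under rescaling to one total. NDUFA13 (0.40, SE 0.130), NDUFAF3 (0.17, SE 0.0819) and NDUFAF7 (0.12, SE 0.0851) were on the higher side and did not pass either.

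**Figure D3:**
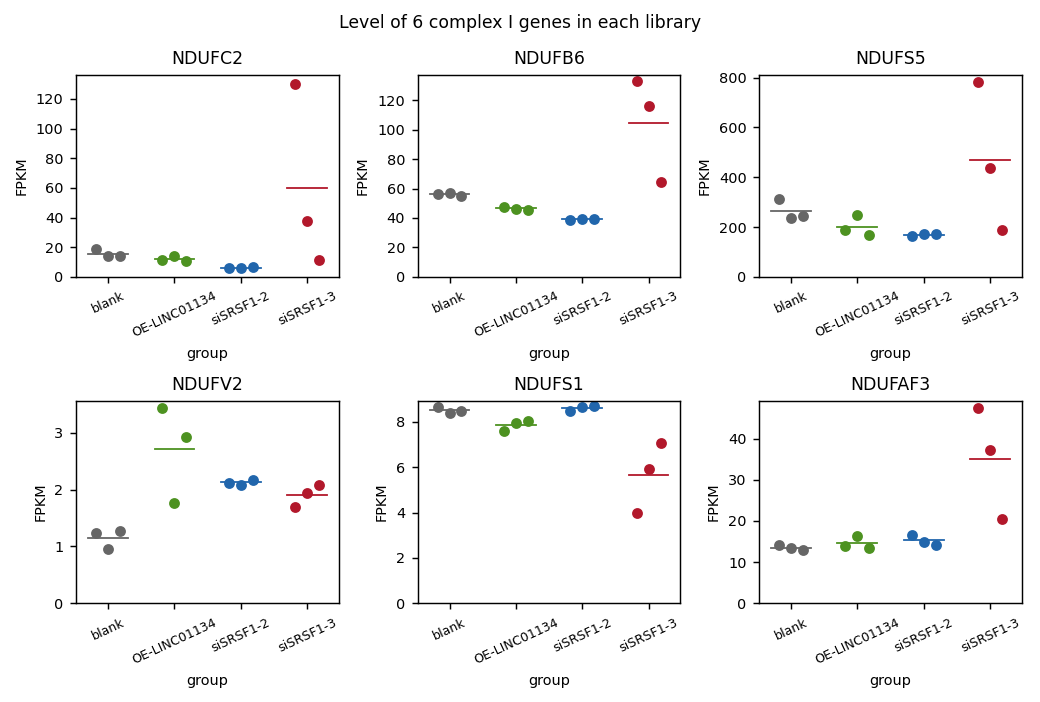
Points are the FPKM of single libraries, replicates 1 to 3 from left to right, and lines the group means. NDUFC2, NDUFB6 and NDUFS5 are low with siSRSF1-2 and spread widely with siSRSF1-3, NDUFV2 is lowest in blank cells, and NDUFS1 is lowest in siSRSF1-3 replicate 1.

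In OE-LINC01134 cells the complex I genes were split evenly, with 22 positive and 23 negative log2 fold changes. The median was -0.0003, against 0.05 for all genes, and it turned positive under other scalings, at 0.09 with FPKM rescaled to the same sum. None of the 45 passed the threshold by limma, which 0.85% of all genes did, and voom called 0. At an unadjusted p under 0.05, 2 were higher, against 14% of all genes, and 4 lower, against 12.3%. The libraries did not overlap for 5 higher genes, against 16.8% of all genes, and for 6 lower ones, against 13.8%. The 4 lower genes at an unadjusted p were NDUFB6, NDUFB3 and NDUFB9, all of the distal membrane arm, and NDUFAF7.

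NDUFV2 had the highest log2 fold change of the 45, at 3.44, 1.76 and 2.93 FPKM against 1.24, 0.947 and 1.26. The groups did not overlap, and the difference of 1.13 (SE 0.276) missed the adjusted threshold (limma, adjusted p = 0.0802). By unadjusted p with the fold change limit it was the only higher one, against 2.45% of all genes. Without OE-LINC01134 replicate 2, the library that stood apart from its group, it was 1.40 and passed, against 2.91% of all genes higher. It also passed with all 4 groups in one fit, against 0.992%. NDUFB4, a distal membrane-arm subunit, stood at 74.1, 70.03 and 68.5, above the blank values of 62.6, 48.1 and 46.2 (0.45, SE 0.137, limma, adjusted p = 0.111). It has 12 annotated pseudogenes. NDUFB6 stood at 47.6, 46.2 and 45.7, below the blank libraries and above the siSRSF1-2 ones (-0.27, SE 0.0864, limma, adjusted p = 0.117). NDUFB3 stood at 21.2 and 21.3 in replicates 1 and 3 and at 30.6 in replicate 2, just below the lowest blank value of 31.2 (-0.47, SE 0.173). NDUFB9 (-0.22, SE 0.0877) and NDUFAF7 (-0.33, SE 0.124) were also below all blank libraries, while NDUFA3 (0.26, SE 0.114) and NDUFA5 (0.24, SE 0.122), small accessory subunits of the membrane and matrix arms, were above them.

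The siRNAs were also compared with each other. All 45 genes entered this comparison, and 41 were on the higher side with siSRSF1-3 and 4 (NDUFS1, NDUFV2, NDUFA13 and NDUFAF7) on the lower, with a median log2 difference of 1.12, against -0.02 for all genes. None passed the limma threshold, which 0.0855% of all genes did, and voom called 0. At an unadjusted p under 0.05, 35 were higher, against 21.9% of all genes, and 3 lower, against 20.2%, and 25 of the 35 also had a log2 difference over 1, against 9.01%. Libraries did not overlap for 39 higher genes, against 27% of all genes, and for 4 lower ones, against 27.6%. Without siSRSF1-3 replicate 3 the count past the threshold was 31, all higher, against 16% of all genes higher, and it was 0 without any other one library. With all 4 groups in one fit it was 24, against 8.39%.

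NDUFB6 and NDUFB4 had the smallest p of the 45 here. NDUFB6 stood at 133, 116 and 64.6 with siSRSF1-3 against 38.7, 39.1 and 39.4 with siSRSF1-2, without overlap (1.35, SE 0.280, limma, adjusted p = 0.0749). NDUFB4 stood at 104, 99.9 and 64.4 against 45.8, 41.1 and 45.3 (0.99, SE 0.214, limma, adjusted p = 0.0749). NDUFC2 differed most, by 2.61 (SE 0.820), with siSRSF1-3 replicate 3 at 11.6 the closest to the siSRSF1-2 libraries. NDUFV2 lay just below, at 1.69, 1.94 and 2.08 against 2.12, 2.09 and 2.17 (-0.15, SE 0.142).

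The library sizes that the deposited FPKM imply were 0.712 and 0.888 times the libraries' own read totals in siSRSF1-3 replicates 1 and 2, and 0.990 to 1.09 times in the others. With FPKM set to each library's own read total, the median of all genes shifted to -0.26 with siSRSF1-3 and that of the 45 genes to 0.50, with 41 positive. With FPKM rescaled to the same sum, the medians were -0.43 for all genes and 0.32 for the 45, with 35 positive and 10 negative. In replicate 1, 18 of the 45 exceeded the blank mean by over 1 at its own read total, against 10.7% of all genes, and in replicate 2 there were 14, against 7.6%. With siSRSF1-2, rescaling to the same sum gave medians of 0.15 for all genes and -0.07 for the 45, of which 19 were then positive and 26 negative. In OE-LINC01134 it gave 0.14 and 0.09, with 28 positive and 17 negative.

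**Figure D4:**
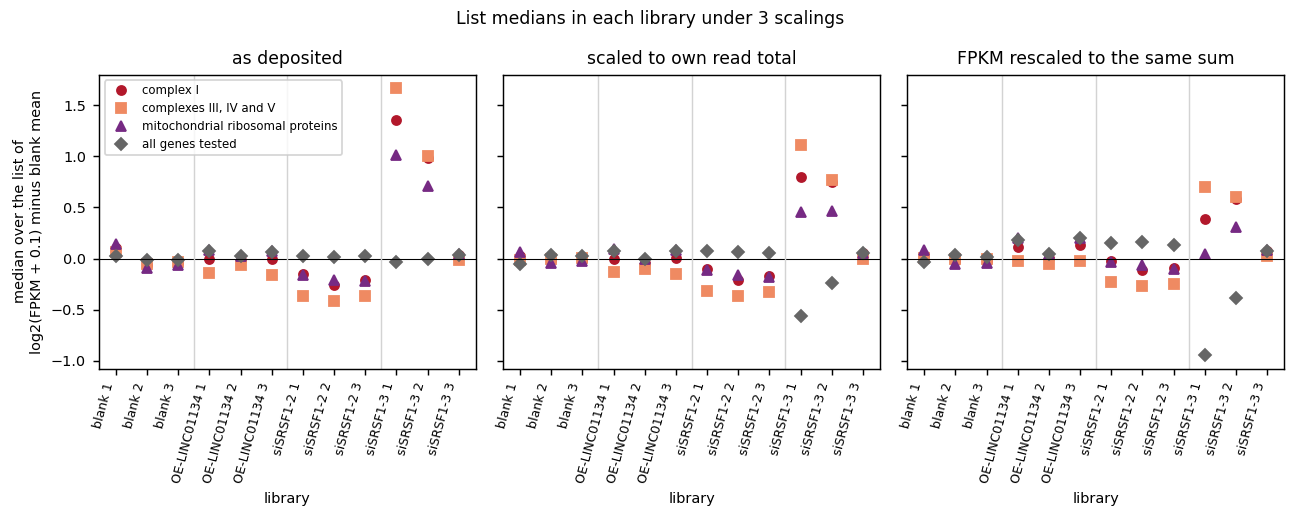
Points are the medians over each gene list of log2(FPKM + 0.1) minus the blank mean, by library, under 3 scalings. In siSRSF1-3 replicates 1 and 2 the complex I genes (1.36 and 0.99 as deposited) lie above all genes tested under each scaling, and in replicate 3 the medians of complex I and of all genes are both 0.04 as deposited.

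Other genes of mitochondrial respiration were set beside the 45. The subunits of complexes III, IV and V, of which 38 were tested, had median log2 fold changes of 0.89 with siSRSF1-3, -0.38 with siSRSF1-2 and -0.15 in OE-LINC01134. The 77 mitochondrial ribosomal proteins tested had medians of 0.59, -0.18 and 0.08. By adjusted p with siSRSF1-2, 28 of the 38 and 21 of the 77 were lower, against 12.8% of all genes, and 0 and 1 higher, against 14%, and none of either list passed with the fold change limit. The 4 subunits of complex II, which passes electrons from succinate, had medians of 0.08, -0.07 and 0.01, and the first 2 turned to -0.36 and 0.07 under rescaling to one FPKM total. Whether complex I differed from these lists was not tested.

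The 14 assembly factors of complex I that are named otherwise had medians of 0.34 with siSRSF1-3, -0.09 with siSRSF1-2 and 0.10 in OE-LINC01134, of which the first 2 turned to -0.11 and 0.04 under that rescaling, and none passed the threshold. By adjusted p with siSRSF1-2, TMEM126B (0.39, SE 0.0850), needed for the membrane arm, and the insertase OXA1L (0.33, SE 0.0587) were higher and DMAC1 (-0.28, SE 0.0792), a factor of the distal membrane arm, was lower. At an unadjusted p under 0.05, 3 were higher with siSRSF1-3, against 15.2% of all genes, and 1 was lower in OE-LINC01134, against 12.3%. The 7 complex I subunits encoded in mitochondrial DNA had medians of -0.03, -0.21 and -0.45. With siSRSF1-3 their values ran from -1.96 to 0.73, with 5 negative and 2 positive. MT-ND3 was lower by adjusted p with siSRSF1-2, as were 12.8% of all genes, at 3029, 2769 and 3248 FPKM against 6168, 4658 and 4689 (-0.77, SE 0.133, limma, adjusted p = 0.0104). All 7 had negative values in OE-LINC01134, where 5 had an unadjusted p under 0.05, against 12.3% of all genes lower, and none passed the limma threshold. Of the 8 regulators of mitochondrial biogenesis, 7 were tested, with medians of -0.12, 0.16 and 0.09, and none passed the threshold.

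Gene length ran along with the values. Across the 45 genes, Spearman's rho between log2 fold change and gene length was -0.186 with siSRSF1-3, 0.462 with siSRSF1-2 and 0.0917 in OE-LINC01134, against -0.146, 0.0583 and 0.0088 across all genes tested. The genes share their libraries and are not independent replicates. Within length bins, the 17 complex I genes of 1000 to 1999 bases had a median of 0.96 with siSRSF1-3, against 0.33 for all genes of that length. The 10 of 4000 to 7999 bases had 0.80, against -0.08. With siSRSF1-2 the same bins gave -0.32 against -0.09 and -0.11 against 0.03. The 10 of 2000 to 3999 bases were not lower than all genes of that length, at -0.07 against -0.08. The 4 under 1000 bases had -0.43 against 0.08, and the 4 of 8000 bases and over -0.02 against 0.16. With a smooth length trend over all genes removed, the medians of the 45 were 0.69 with siSRSF1-3 and -0.14 with siSRSF1-2.

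**Figure D5:**
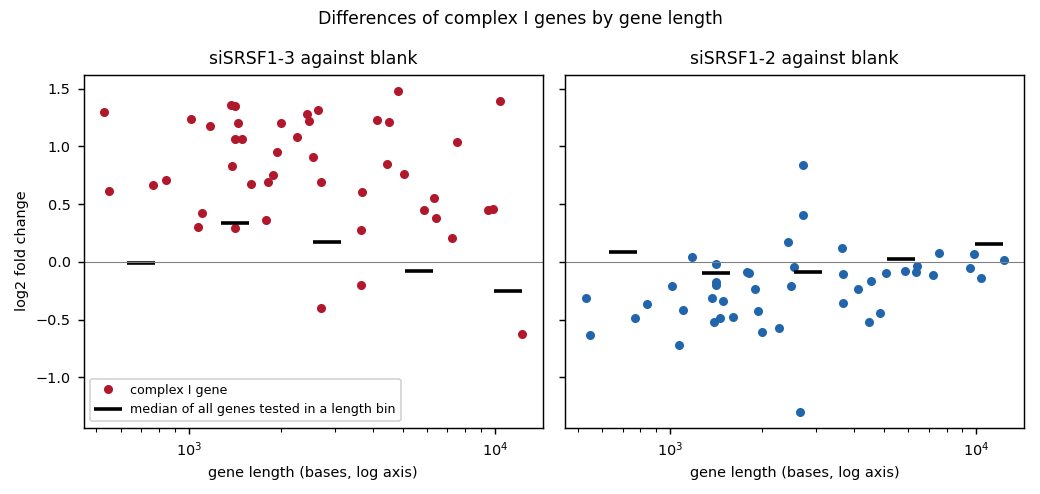
Points are complex I genes by gene length (log axis) and fitted log2 fold change, and black bars the medians of all genes tested in 5 length bins. With siSRSF1-3 most points lie above the bars at every length, with NDUFS1, the longest, at -0.62, and with siSRSF1-2 the shorter genes lie lower.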

How the data were processed

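Poly-A RNA libraries were read as paired ends according to the supplementary methods, while the labels name another library kit. The aligner, counter and genome build behind these values are not given in the sources used here beyond a mouse build in the labels, which the human identifiers contradict. The authors deposited FPKM per gene, with lengths and coordinates. FPKM times length gave whole reads for 100% of values (tolerance 0.01), and the implied library sizes ran from 0.712 to 1.09 times each library's own total. Symbols and roles were assigned from the deposited full names. Of the 45 genes, 18 have annotated pseudogenes and 9 overlap a protein-coding gene on the same strand (among those named NDUFC1, NDUFC2, NDUFS3, NDUFB8, NDUFA7, NDUFA11 and NDUFA13), and how shared reads were assigned is not known. Libraries were grouped by their labels.

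Values of log2(FPKM + 0.1) were fitted on all 17538 genes with limma 3.58.1 in R 4.3.3 (lmFit, eBayes with trend), a pair of groups at a time with no covariate, with Benjamini-Hochberg adjustment over all genes tested. Genes passed with an adjusted p under 0.05 and a log2 fold change above 1 or below -1. A fold change on this scale understates that of low genes. The fit was checked on simulated data. Genes named were the core subunits (the values of 1 are not reported here), those past the threshold, the 4 smallest p in each direction of each comparison, the extremes of level, and a few chosen after their values were seen (NDUFA11, NDUFB7, NDUFS6, NDUFAB1, NDUFAF2, NDUFAF8, TMEM126B, OXA1L, DMAC1 and MT-ND3). The members and lists were chosen with earlier results of these data known. Alternatives were pseudocounts of 1 and 0.01, no expression filter, a filter at a mean FPKM of 1, FPKM at the same sum or each library's own read total, eBayes without trend, voom on recovered reads, one fit over all 4 groups, adjusted p alone, unadjusted p, a replicate block, removal of a loess length trend (span 0.5) and omission of each library. No sequence is shown, since only mouse references were at hand.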

Additional observations from a re-analysis of the deposited data

How the results depend on the processing

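With siSRSF1-3, the 0 higher complex I genes became 13 with all 4 groups in one fit, 10 by unadjusted p with the same fold change, and 0 to 28 with one library left out, the 28 without siSRSF1-3 replicate 3. Against siSRSF1-2 the same settings gave 24, 25 and 0 to 31. With siSRSF1-2 against blank, adjusted p alone gave 1 higher and 16 lower genes, and one fit over all groups gave 0 lower, with NDUFC2 no longer past the threshold. The siSRSF1-2 median moved to -0.068 with FPKM at the same sum and -0.14 with the length trend removed, and ran from -0.23 to -0.15 with one library left out. The OE-LINC01134 median of -0.0003 turned to 0.0025 at a mean FPKM of at least 1, 0.089 at the same sum, 0.00021 by voom and 0.076 with the length trend removed, was -0.0060 at each library's own total, and ran from -0.039 to 0.049 with one library left out. Its higher count became 1 (NDUFV2) in one fit over all groups and by unadjusted p, and 0 to 1 with one library left out. Causes were not tested. Deviations of same-numbered libraries correlated at -0.08 to 0.21, and those of differently numbered ones at -0.22 to 0.12. The highest were between OE-LINC01134 and siSRSF1-3, at 0.19 for replicate 2 and 0.21 for replicate 3. Whether those libraries share a source was not tested. A replicate block left these counts at 0, 1 and 0 against blank.

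Of the genes that the naming rule chose and that are reported here, these changed sign. With FPKM at the same sum, siSRSF1-3 against blank gave NDUFB3 -0.019 and NDUFA7 -0.078, siSRSF1-2 gave NDUFV1 0.033 and NDUFA7 0.093, OE-LINC01134 gave NDUFV1 0.074, NDUFS3 0.023 and NDUFA7 0.054, and siSRSF1-3 against siSRSF1-2 gave NDUFA5 -0.18 and NDUFA7 -0.17. At its own read total, NDUFA7 was 0.020 with siSRSF1-2. With the length trend removed, siSRSF1-2 gave NDUFS1 -0.12, NDUFA5 -0.023 and NDUFA7 0.062, and OE-LINC01134 gave NDUFV1 0.065, NDUFS3 0.046, NDUFA13 0.045 and NDUFA7 0.10. With one library left out, NDUFA7 ran from -0.014 to 0.53 with siSRSF1-3, -0.33 to 0.27 with siSRSF1-2 and -0.33 to 0.21 in OE-LINC01134, NDUFS4 from -0.059 to 0.10 with siSRSF1-2, and in OE-LINC01134 NDUFV1 from -0.057 to 0.043, NDUFS3 from -0.33 to 0.13 and NDUFS8 from -0.0046 to 0.097. The lowest counts, 11 reads on a complex I gene in a library, limit NDUFA7 most.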
